A study of Homo sapiens with 4 samples.

Results

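The nuclear genes for the subunits of the respiratory chain and ATP synthase were compared between K562 cells transfected with RUNX1::ERG and K562 cells transfected with the empty vector. Members were chosen by gene symbol. They are the protein-coding genes whose symbol starts with NDUFA, NDUFB, NDUFC, NDUFS, NDUFV, UQCR, ATP5 or COX followed by 4, 5, 6, 7 or 8, together with SDHA, SDHB, SDHC, SDHD and CYC1. Of the 25702 genes counted, 95 met this rule. They comprised 37 subunits of complex I, 4 of complex II, 10 of complex III, 17 of complex IV and 19 of complex V, and 8 NDUFAF genes, which the symbol rule also takes in. The NDUFAF genes encode assembly factors of complex I and were kept apart from the 87 subunits. Complexes were assigned by symbol, so ATP5IF1, an inhibitor of complex V, and COX7A2L, which links complexes III and IV, are counted among the subunits here. A further 2 genes of the gene table met the rule, the read-through genes ATP5MF-PTCD1 and NDUFC2-KCTD14, and were not analysed here. NDUFA4 and NDUFA4L2 are listed in that table as COXFA4 and COXFA4L2, so they fall outside the rule, and they are given below as an isoform pair.

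The series holds 4 libraries of poly(A)-enriched RNA, sequenced as paired-end reads. K562 is an established human chronic myeloid leukemia cell line. The 2 libraries of one group came from cells transfected with the LeGO-iG2 plasmid carrying RUNX1::ERG, and the 2 of the other from cells transfected with the LeGO-iG2 plasmid without an insert. Both groups were thus nucleofected, both carry the LeGO-iG2 backbone, and the labels give no other treatment. RUNX1::ERG is a fusion gene found in acute myeloid leukemia, and its protein keeps the Runt DNA-binding domain of RUNX1 and the Ets DNA-binding domain of ERG. The design asks which genes differ between cells that express the fusion and cells that do not. Expression was transient and from a plasmid in 1 cell line, so the libraries describe a transfected culture in which untransfected cells may also be present.

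Oxidative phosphorylation couples the oxidation of NADH and succinate to ATP synthesis in the inner mitochondrial membrane. Complex I (NADH dehydrogenase) and complex II (succinate dehydrogenase) pass electrons to ubiquinone, complex III (the cytochrome bc1 complex) passes them to cytochrome c, and complex IV (cytochrome c oxidase) passes them to oxygen. Complexes I, III and IV pump protons, and complex V (ATP synthase) uses the proton gradient to make ATP. Complexes I, III, IV and V are built from nuclear and mitochondrial gene products, whereas the subunits of complex II are all nuclear. Promoters of the nuclear subunit genes are known for binding sites of NRF1, of the Ets family factor GABP and of YY1. In erythroid and megakaryocytic cells, the lineages that K562 resembles, mitochondria also supply heme.

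Library totals ran from 59695387 to 82352144 counts. The fusion parts checked the labels: ERG had 4 counts in each empty vector library, 80443 in RUNX1::ERG replicate 1 and 27218 in RUNX1::ERG replicate 2. The 10 erythroid K562 genes used as a check, globins and GATA1 among them, summed to 12118 and 12750 CPM with the empty vector and to 14441 and 13319 CPM with RUNX1::ERG. CPM are counts divided by the library total in units of 1e6 counts and scaled by edgeR's TMM factors. Both RUNX1::ERG sums were higher, and 2 of these genes, TAL1 (log2 fold change 0.68) and EPOR (0.87), were called higher, while HBZ was at -0.59 and did not pass the threshold. A list of 12 genes of other cell types summed to 93.9 and 102 CPM with the empty vector and 131 CPM in each RUNX1::ERG library. Of its 9 genes with enough counts to test, 5 (VWF, PECAM1, COL1A1, CD14 and LYZ) were past the threshold and higher with RUNX1::ERG, and MS4A1 was at 0 in all 4 libraries. Beside both lists, 4.79% of all genes tested were past the threshold, in either direction. The part of these genes in the results below was not tested. In bulk RNA, a different share of cells of one kind and a different amount of RNA per cell cannot be told apart.

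Promoter sequences are shown for 6 members, from every complex, as examples of the letters searched. RefSeq promoters (GRCh38.p14, 250 bases before and 50 after the gene's start) were given for 68 of the 83 subunit genes tested. The Ets word CCGGAAG was searched on both strands and occurred in 20 of these 68 windows (29.4%), against 18.9% of the 10793 promoters of tested protein-coding genes. By complex, it was in 5 of 32 windows of complex I, 2 of 3 of complex II, 3 of 7 of complex III, 5 of 12 of complex IV and 5 of 14 of complex V. The NRF1 word GCGCATGC was in 19.1% of the subunit windows against 5.49% of all, and the YY1 word AAGATGGC in 16.2% against 5.23%. The RUNX words TGTGGT and TGCGGT, counted together, were in 27.9% against 18.3%, and the E-box CACGTG, the word that MYC binds, in 10.3% against 9.98%. Matches of different words may share bases, and a match is a description of letters, not of binding. The 200 bases before the start follow for NDUFB7 (chr19:14572067-14572266 on the minus strand), NDUFB4 (chr3:120596136-120596335 on the plus strand), SDHB (chr1:17054033-17054232 on the minus strand), UQCR11 (chr19:1605463-1605662 on the minus strand), COX5B (chr2:97645862-97646061 on the plus strand) and ATP5PD (chr17:75046970-75047169 on the minus strand), each read 5′ to 3′ on the gene's strand. Capitals mark the Ets word or the NRF1 word, in either orientation, and the last word of COX5B runs past the stretch shown. The RUNX words were not found in the windows of these 6 genes, and NDUFB4 has no Ets word.
NDUFB7: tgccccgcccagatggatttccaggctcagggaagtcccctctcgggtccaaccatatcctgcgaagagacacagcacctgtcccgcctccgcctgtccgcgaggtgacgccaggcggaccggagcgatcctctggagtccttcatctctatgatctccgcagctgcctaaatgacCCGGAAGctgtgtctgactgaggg
NDUFB4: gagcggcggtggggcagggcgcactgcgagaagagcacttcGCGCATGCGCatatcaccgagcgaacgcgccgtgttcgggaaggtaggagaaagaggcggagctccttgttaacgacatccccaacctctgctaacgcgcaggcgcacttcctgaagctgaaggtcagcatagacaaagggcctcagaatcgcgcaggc
SDHB: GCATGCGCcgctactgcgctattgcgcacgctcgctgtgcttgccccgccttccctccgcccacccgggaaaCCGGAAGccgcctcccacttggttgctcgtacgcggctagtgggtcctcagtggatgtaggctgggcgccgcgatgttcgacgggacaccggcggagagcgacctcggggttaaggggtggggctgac
UQCR11: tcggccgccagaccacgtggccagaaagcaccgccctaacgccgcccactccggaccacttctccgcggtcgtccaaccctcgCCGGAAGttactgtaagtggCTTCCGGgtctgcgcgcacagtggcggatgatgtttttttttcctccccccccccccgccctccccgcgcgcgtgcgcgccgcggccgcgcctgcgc
COX5B: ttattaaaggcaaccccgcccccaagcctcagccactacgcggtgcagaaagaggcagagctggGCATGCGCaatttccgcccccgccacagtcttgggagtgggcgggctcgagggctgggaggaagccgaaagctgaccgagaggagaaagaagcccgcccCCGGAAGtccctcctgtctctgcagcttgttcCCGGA
ATP5PD: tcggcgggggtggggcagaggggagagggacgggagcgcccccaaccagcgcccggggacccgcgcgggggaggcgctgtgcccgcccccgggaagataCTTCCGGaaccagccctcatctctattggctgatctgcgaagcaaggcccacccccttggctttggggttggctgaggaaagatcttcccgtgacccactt

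The Ets word begins 24 bases before the start of NDUFB7, 128 before SDHB, 117 and 97 before UQCR11, 37 and 5 before COX5B and 101 before ATP5PD. The NRF1 word begins 200 bases before the start of SDHB and 136 before COX5B, and NDUFB4 has overlapping NRF1 words that begin 159 and 157 bases before its start. On the log2 scale, these 6 genes had fold changes (RUNX1::ERG minus empty vector) of 0.09 for NDUFB7, 0.34 for NDUFB4, -0.11 for SDHB, 0.10 for UQCR11, 0.16 for COX5B and 0.20 for ATP5PD. The median log2 fold change was 0.11 for the subunit genes with the Ets word and 0.10 for those without it. Over all tested protein-coding genes with a promoter, the medians were -0.08 with the word and 0.02 without. For the RUNX words the subunit medians were 0.11 and 0.10, for the E-box 0.02 and 0.11, for the NRF1 word 0.10 and 0.10, and for the YY1 word 0.08 and 0.10.

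No respiratory chain gene differed past the threshold between cells with and without RUNX1::ERG. Of the 95 members, 91 had enough counts to be tested, and 0 had an adjusted p under 0.05 (the quasi-likelihood test of edgeR, adjusted by Benjamini-Hochberg over all genes, as for every edgeR p below), where 4.79% of the 15394 genes tested did. At an unadjusted p under 0.05 there were 4 members (NDUFA12, NDUFB4, NDUFA8 and COX6B2), that is 4 of 91 where 18.0% of all tested genes passed. DESeq2 called 0 members where it called 7.51% of its genes, and limma voom called 0 where it called 4.47%. The other 4 members were ATP5MGL and COX6A2, with no counts, and COX4I2 and COX8C, with 2 and 3 counts in 1 library each. The lowest adjusted p among the members was 0.193, for COX6B2.

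The intervals were narrow for most subunits. For 62 of the 83 subunits tested, the 95% interval of the fold change lay within 1.5-fold in either direction, and for 80 within 2-fold. The other 3 were COX7A1, COX6B2 and COX7B2, all near or below 2 CPM. The median distance from the estimate to the end of the interval was 0.35 on the log2 scale. Among the 80 subunits with a mean of at least 10 CPM, log2 fold changes ran from -0.34 for NDUFA12 to 0.42 for NDUFA1. The smallest p that an exact permutation test, two-sided, can reach with 2 libraries a group is 0.333.

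The 5 complexes differed little in their medians, and complex IV had the highest. The median log2 fold change was 0.10 for complex I, 0.04 for complex II, 0.07 for complex III, 0.17 for complex IV and 0.02 for complex V, and it was 0.00 over all tested genes. Of the 83 subunits, 60 had an estimate above 0 and 23 below. Both RUNX1::ERG libraries lay above both empty vector libraries for 28 of the 91 members, against 25.1% of all tested genes, and both lay below for 11, against 22.1%. By complex, the first count was 9 of 37 for complex I, 1 of 4 for complex II, 2 of 10 for complex III, 10 of 14 for complex IV and 5 of 18 for complex V. The second was 3, 1, 0, 2 and 1 in the same order. The same 10 genes of complex IV were apart under each of the other scalings (DESeq2 size factors, library totals and upper quartile). They include COX7A1, which had only 1 and 8 counts with the empty vector and 15 and 11 with RUNX1::ERG. The differences between complexes were not tested, since the genes of a complex are not replicates.

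**Figure D1:**
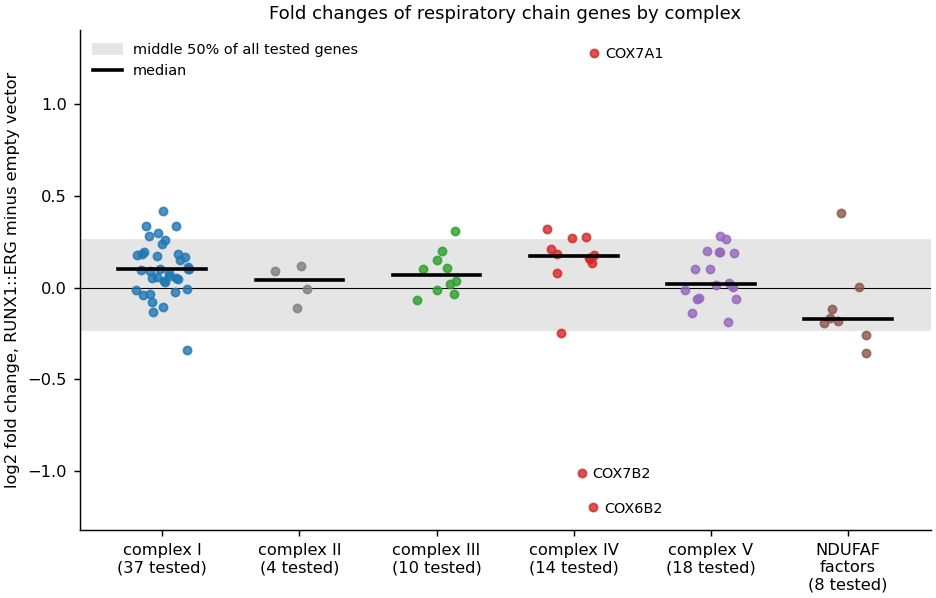
Log2 fold change (RUNX1::ERG minus empty vector) on the y axis for each tested gene, one point per gene, grouped by complex along the x axis. Black lines are medians (0.10, 0.04, 0.07, 0.17, 0.02 and -0.17 from left to right), the grey band holds the middle 50% of all tested genes, and COX7A1, COX7B2 and COX6B2 lie outside the range of the other genes.

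Library by library, the complexes did not all keep the groups apart. Each gene's log2 CPM was set against its mean over the 4 libraries, and the median was taken over the genes of a complex. Complex IV was at -0.10 and -0.05 in empty vector replicates 1 and 2, and at 0.15 and 0.02 in RUNX1::ERG replicates 1 and 2. Complex V was at -0.07 and 0.00, and then at 0.10 and 0.04. In these complexes both RUNX1::ERG libraries were above both empty vector libraries. Complex I was at -0.03 and -0.07, and then at 0.15 and -0.05, and complex III at -0.07 and -0.03, and then at 0.13 and -0.05, so that only RUNX1::ERG replicate 1 stood apart. Complex II was at -0.08 and 0.04, and then at -0.01 and 0.06, and its groups overlapped. RUNX1::ERG replicate 1 decided the medians of complexes I and III, which were -0.02 each without it. That of complex IV was 0.10 without it and 0.24 without RUNX1::ERG replicate 2. RUNX1::ERG replicate 1 has more ERG counts than replicate 2 and also the largest library total. The part of either was not tested. Leaving out empty vector replicate 1 gave a median of -0.03 for complex II, and leaving out RUNX1::ERG replicate 2 gave -0.03.

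**Figure D2:**
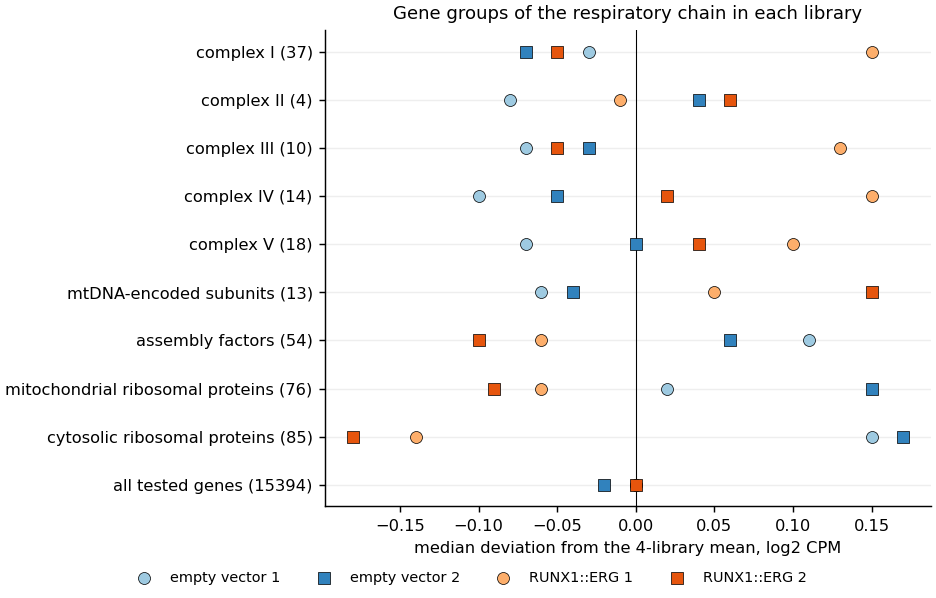
Median deviation of a gene group in each library, in log2 CPM relative to each gene's mean over the 4 libraries (x axis), for the gene groups on the y axis with the number of genes tested in parentheses. Light and dark blue are the empty vector libraries and light and dark orange the RUNX1::ERG libraries. Complexes IV and V and the mtDNA-encoded subunits lie further right with RUNX1::ERG (0.15 and 0.02 for complex IV), and the assembly factors and both ribosomal protein groups further left.

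Summed over its subunits, complex I took 4798 and 4726 CPM with the empty vector and 5356 and 4766 CPM with RUNX1::ERG. Complex II took 708 and 755 CPM, and then 743 and 757 CPM. Complex III took 2286 and 2431 CPM, and then 2516 and 2414 CPM. These sums overlapped between the groups. Complex IV took 2600 and 2632 CPM, and then 3089 and 2822 CPM, a log2 ratio of the group means of 0.18. Complex V took 6229 and 6744 CPM, and then 6815 and 6895 CPM, a log2 ratio of 0.08. All members together made up 1.70% and 1.69% of the counts with the empty vector and 1.92% and 1.80% with RUNX1::ERG.

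In complex I, the core subunits bind NADH, carry the flavin and the iron-sulfur clusters, and reduce ubiquinone. NDUFV1, the NADH-binding flavoprotein, was at 331 and 322 CPM with the empty vector and at 365 and 316 CPM with RUNX1::ERG. The groups overlapped, and the log2 fold change was 0.06 with a standard error (SE) of 0.15. NDUFS1, the largest iron-sulfur subunit, was at 142 and 145 CPM, and then at 136 and 157 CPM (log2 fold change 0.03, SE 0.15). NDUFS3 was at 107 and 111 CPM, and then at 137 and 114 CPM, with both RUNX1::ERG libraries above (log2 fold change 0.20, SE 0.16). NDUFV2, which carries an iron-sulfur cluster beside NDUFV1, was at 204 and 188 CPM, and then at 222 and 219 CPM (log2 fold change 0.17, SE 0.15). The core subunits NDUFS7 (log2 fold change 0.08) and NDUFS8 (0.05) overlapped between the groups. The signs of NDUFS7, NDUFS8 and NDUFV1 turned without RUNX1::ERG replicate 1, at -0.24, -0.11 and -0.05, and that of NDUFS1 without RUNX1::ERG replicate 2, at -0.09. NDUFS7 also turned without empty vector replicate 2, at -0.06.

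The 30 accessory subunits of complex I surround this core and are needed for its assembly and stability. Their median log2 fold change was 0.10, at 0.05 for the 13 NDUFA genes, which include NDUFAB1, and 0.17 for the 11 NDUFB genes, which belong to the membrane arm. NDUFA1 (NCBI gene 4694, chromosome X of GRCh37, 119005795 to 119010625), a small membrane-arm protein, had the highest estimate of the complex. It was at 133 and 109 CPM with the empty vector and at 191 and 132 CPM with RUNX1::ERG. RUNX1::ERG replicate 2 lay between the empty vector libraries, and the log2 fold change of 0.42 (SE 0.20, edgeR adjusted p = 0.31) did not pass the threshold. NDUFA12 (NCBI gene 55967, chromosome 12, 95289073 to 95397524), an accessory subunit of the peripheral arm, had the lowest. It was at 82.6 and 82.3 CPM, and then at 65.6 and 64.8 CPM. Both RUNX1::ERG libraries were below, with a log2 fold change of -0.34 (SE 0.15, edgeR adjusted p = 0.28).

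Replicates were also close together in NDUFB4 and NDUFA8. NDUFB4 (NCBI gene 4710, chromosome 3, 120315175 to 120321354) was at 93.0 and 97.7 CPM, and then at 121 and 120 CPM, with a log2 fold change of 0.34 (SE 0.15, edgeR adjusted p = 0.27). The gene table lists 12 pseudogenes named after NDUFB4, so its reads may be shared with copies. NDUFA8 (NCBI gene 4702, chromosome 9, 124906337 to 124922058), an intermembrane-space subunit, was at 118 and 125 CPM, and then at 158 and 149 CPM. Its log2 fold change was 0.34 (SE 0.15, edgeR adjusted p = 0.28). NDUFB5, of the membrane arm, was at 133 and 117 CPM, and then at 155 and 149 CPM (log2 fold change 0.28, SE 0.15). In these genes the RUNX1::ERG libraries were both above the empty vector libraries, by more than the replicates of a group differed in NDUFB4 and NDUFA8. In NDUFAB1, the mitochondrial acyl carrier protein, and in NDUFS5 both RUNX1::ERG libraries were below, with log2 fold changes of -0.13 and -0.11.

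Complex II, the enzyme that the respiratory chain shares with the citric acid cycle, showed the narrowest range. SDHA, the flavoprotein that oxidizes succinate, was at 286 and 295 CPM with the empty vector and at 318 and 314 CPM with RUNX1::ERG, with both of the latter above (log2 fold change 0.12, SE 0.14). SDHB, the iron-sulfur subunit, was at 162 and 173 CPM, and then at 159 and 151 CPM, with both below (log2 fold change -0.11, SE 0.15). SDHC and SDHD, which anchor the enzyme in the membrane and bind ubiquinone, had log2 fold changes of 0.09 and -0.01 with overlapping groups. The 2 catalytic subunits therefore had estimates of opposite sign, each smaller than its SE.

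In complex III, UQCRB, a ubiquinone-binding protein, had the highest estimate. UQCRB (NCBI gene 7381, chromosome 8, 97235175 to 97247774) was at 239 and 288 CPM, and then at 309 and 345 CPM. The groups did not overlap, and the log2 fold change was 0.31 (SE 0.16, edgeR adjusted p = 0.34). UQCRC1, a core protein, was at 246 and 278 CPM, and then at 294 and 288 CPM (log2 fold change 0.15, SE 0.15). The redox subunits overlapped between the groups. CYC1, cytochrome c1, was at 221 and 179 CPM, and then at 243 and 167 CPM, and in both groups replicate 1 was the higher (log2 fold change 0.04, SE 0.20). UQCRFS1, the Rieske iron-sulfur protein, was at 160 and 175 CPM, and then at 171 and 168 CPM (log2 fold change 0.02, SE 0.15). UQCRH, the hinge protein, had the lowest estimate, at 647 and 710 CPM and then at 644 and 653 CPM (log2 fold change -0.06, SE 0.14). The estimate of CYC1 was -0.26 without RUNX1::ERG replicate 1 and -0.11 without empty vector replicate 2, and that of UQCRFS1 was -0.05 without empty vector replicate 1.

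Complex IV was the complex in which most subunits kept the groups apart. Of its 11 subunits above 10 CPM, 9 had both RUNX1::ERG libraries above both empty vector libraries, with log2 fold changes from 0.08 for COX5A to 0.32 for COX7B. All 9 have pseudogenes named after them in the gene table, and the other subunits above 10 CPM have none. COX7B (NCBI gene 1349, chromosome X, 77154937 to 77162873), a small transmembrane subunit, was at 143 and 149 CPM, and then at 183 and 182 CPM. The gap between the groups was wider than that between replicates, with a log2 fold change of 0.32 (SE 0.15, edgeR adjusted p = 0.29). COX7C (NCBI gene 1350, chromosome 5, 85913745 to 85916779) was at 361 and 362 CPM, and then at 450 and 425 CPM (log2 fold change 0.28, SE 0.14, edgeR adjusted p = 0.35). COX4I1, the regulatory subunit that binds ATP, was at 424 and 441 CPM, and then at 509 and 457 CPM (log2 fold change 0.16, SE 0.14). COX5A and COX5B had log2 fold changes of 0.08 and 0.16, COX6A1 0.18, COX6B1 0.21, COX6C 0.18 and COX7A2 0.27. COX8A overlapped between the groups (0.13). COX7A2L, which links complexes III and IV in supercomplexes, was at 121 and 90.2 CPM, and then at 90.7 and 87.3 CPM, and empty vector replicate 1 alone stood apart from the other libraries (log2 fold change -0.25, SE 0.18).

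**Figure D3:**
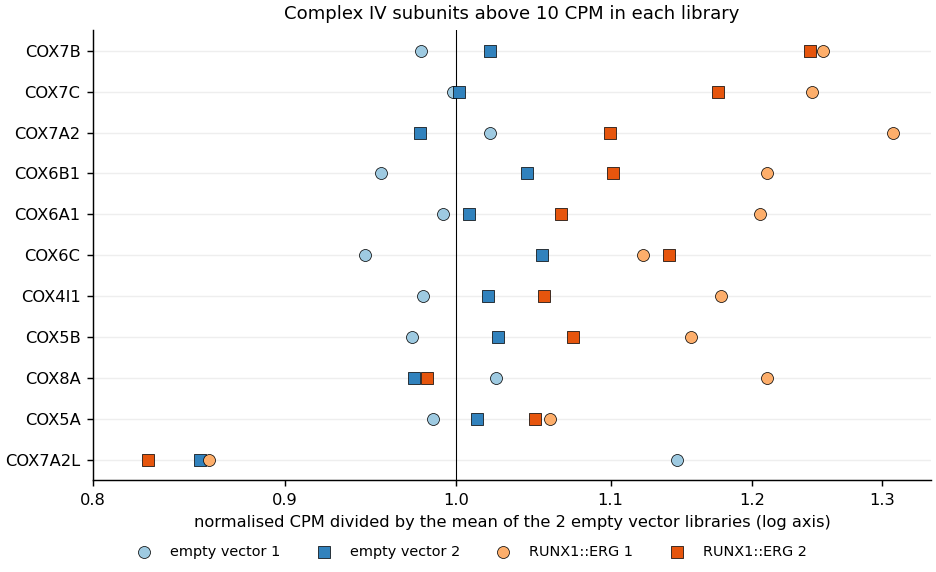
Normalised CPM of each complex IV subunit above 10 CPM in each library, divided by the mean of the 2 empty vector libraries (x axis, log scale), with genes on the y axis from the highest to the lowest log2 fold change. Blue symbols are empty vector and orange symbols RUNX1::ERG libraries. In 9 of the 11 genes both orange symbols lie right of both blue ones, and COX8A and COX7A2L are the exceptions. These exceptions are also the genes shown that have no named pseudogene.

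Many of these genes have named copies. In complex IV, 9 of the 14 subunits tested have pseudogenes named after them in the gene table (18 for COX6C, 8 for COX5B), and the 5 without one (COX6B2, COX7A1, COX7A2L, COX7B2 and COX8A) had a median log2 fold change of -0.25. Of these 5, COX6B2, COX7A1 and COX7B2 were near or below 2 CPM with SEs of 0.46 or more, and the others are COX7A2L (-0.25) and COX8A (0.13). The 9 with pseudogenes are the same 9 subunits above 10 CPM in which both RUNX1::ERG libraries lay above. COX7A2L and COX8A, the subunits above 10 CPM without one, are those in which they did not. Above 10 CPM the complex IV pattern and the named pseudogenes thus coincide. Across the 91 members tested, 20 of 53 with a named pseudogene or copy had both RUNX1::ERG libraries above, and 8 of 38 without one, where 25.1% of all tested genes had. How the authors' counting treated reads that fit several places was not given in the sources used here, and reads shared with such copies were not measured, so their part was not tested.

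Several complex IV subunits have tissue isoforms, and the ubiquitous form made up almost all counts in these cells. COX4I2, the lung form, had 0 counts in 3 libraries and 2 in RUNX1::ERG replicate 2, against 25524 to 42918 counts of COX4I1. Its share of the pair there was 0.00610% (exact 95% interval 0.000738% to 0.0220%), and the 0 counts in empty vector replicate 1 allow up to 0.0144%. These intervals cover counting error only. COX6A2, the heart and muscle form, had 0 counts in all libraries beside 15753 to 26813 counts of COX6A1. COX8C had 3 counts in RUNX1::ERG replicate 1 and 0 elsewhere, no more than the 3 counts that a count of 0 allows. COX7A1, the muscle form, had 1 and 8 counts with the empty vector and 15 and 11 with RUNX1::ERG, at most 0.0894% of the counts of COX7A2 and COX7A1 together.

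COX6B2 and COX7B2, which are known as testis forms, were counted at low levels. COX6B2 (NCBI gene 125965, chromosome 19, 55860674 to 55866087) had 127 and 97 counts with the empty vector and 85 and 36 with RUNX1::ERG, or 2.11 and 1.38 CPM and then 1.01 and 0.501 CPM. Both RUNX1::ERG libraries were below, and the log2 fold change was -1.20 (SE 0.46, edgeR adjusted p = 0.19). Its adjusted p passed the threshold without the filter on low counts (0.049) and without empty vector replicate 2 (0.028), and over the alternatives it ran from 0.028 to 0.64. Its share of the COX6B1 and COX6B2 counts was 0.913% and 0.547%, and then 0.346% and 0.189%. COX7B2 had 23 and 33 counts, and then 9 and 23, with a log2 fold change of -1.01 (SE 0.66). COXFA4 (older symbol NDUFA4), now counted as a subunit of complex IV, was at 205 and 241 CPM, and then at 286 and 284 CPM, with a log2 fold change of 0.35 (SE 0.15, edgeR adjusted p = 0.26). COXFA4L2 (older symbol NDUFA4L2), a form known for its induction by hypoxia, had 108 and 44 counts, and then 23 and 27. Its log2 fold change was -1.89 (SE 0.58, edgeR adjusted p = 0.099). Among the settings that kept all libraries, COXFA4L2 passed the threshold only without the filter on low counts. The size of the estimate depended on the empty vector library used. It was -0.95 when replicate 1 of that group was dropped and -2.47 when replicate 2 was. Dropping a RUNX1::ERG library gave -1.68 (replicate 1) or -2.14 (replicate 2).

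In complex V, the catalytic F1 head had no common direction. ATP5F1B, the catalytic beta subunit, was at 1672 and 1923 CPM with the empty vector and at 1832 and 2023 CPM with RUNX1::ERG (log2 fold change 0.10, SE 0.13). ATP5F1A, the alpha subunit, was at 461 and 567 CPM, and then at 452 and 538 CPM (log2 fold change -0.05, SE 0.16). In both genes replicate 2 of each group was the higher and the groups overlapped. ATP5F1C, the gamma subunit of the rotor, was at 309 and 355 CPM, and then at 362 and 397 CPM, with both RUNX1::ERG libraries above (log2 fold change 0.19, SE 0.15). ATP5F1D, the delta subunit, had the lowest estimate, at 182 and 164 CPM and then at 181 and 122 CPM. Its log2 fold change of -0.19 (SE 0.19) rested on RUNX1::ERG replicate 2, and was 0.05 without it. ATP5F1E, the epsilon subunit, had a log2 fold change of -0.06.

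ATP5MC1, ATP5MC2 and ATP5MC3 encode the same mature c subunit of the membrane ring with different import sequences. Their log2 fold changes were 0.10, 0.01 and 0.20. ATP5MC3 was at 667 and 747 CPM, and then at 814 and 809 CPM, with both RUNX1::ERG libraries above (SE 0.14). Counts of ATP5MC2 were 24.6% and 22.7% of those of ATP5MC3 and ATP5MC2 together with the empty vector, and 20.7% and 21.9% with RUNX1::ERG. In the stalk and membrane parts, ATP5MG (NCBI gene 10632, chromosome 11, 118272061 to 118303993), subunit g, had the highest estimate. It was at 239 and 250 CPM, and then at 308 and 287 CPM, with a log2 fold change of 0.28 (SE 0.15, edgeR adjusted p = 0.35). ATP5PO, which joins the head to the peripheral stalk, was at 353 and 415 CPM, and then at 444 and 479 CPM (log2 fold change 0.26, SE 0.15). Exons of ATP5MG, ATP5PO and UQCRB overlap antisense genes in GENCODE, and the strand setting of the counting was not given in the sources used here. ATP5IF1, the inhibitor that blocks ATP hydrolysis by the complex, was at 356 and 274 CPM, and then at 336 and 238 CPM, with a log2 fold change of -0.14 (SE 0.20). It was 0.06 with empty vector replicate 1 left out and 0.08 with RUNX1::ERG replicate 2 left out.

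The libraries that carried the same replicate number differed from their partners in a like way. For the 80 subunits above 10 CPM, 34 were higher in replicate 1 of both groups, 17 were lower in replicate 1 of both, and 29 went opposite ways. Over all 15394 tested genes, 5014 were higher in replicate 1 of both groups, 4586 were lower and 5756 went opposite ways. The share of subunits that went opposite ways was thus near that of all tested genes. Across these subunits, the difference between replicates 1 and 2 of the empty vector and that of RUNX1::ERG had a Pearson r of 0.78, and 0.35 across all tested genes. By complex, r was lowest for complex IV, at 0.14 over 11 genes, of which 7 went opposite ways. These are correlations across genes, which are not independent replicates, and the points share library depth and base composition. ATP5ME, subunit e of ATP synthase, was at 103 and 73.2 CPM with the empty vector and at 112 and 66.4 CPM with RUNX1::ERG, so that its replicates differed more than its groups. NDUFB1, NDUFA3 and NDUFS7 also were higher in replicate 1 of both groups, and ATP5F1A and ATP5PB lower. The mean difference went with base composition and with transcript length. Its Spearman rho was 0.39 with GC content and -0.40 with length across these 80, and 0.39 and -0.24 across all tested genes. Length and GC content were not separated. The median mean difference was 0.19 on the log2 scale for the 16 subunits of these 80 whose transcript is at least 55% GC. It was -0.03 for the 26 under 45%, and 0.15 and -0.08 for all tested genes in those ranges. The log2 fold change between the groups had a Spearman rho of -0.12 with transcript GC content and -0.03 with transcript length across these subunits.

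**Figure D4:**
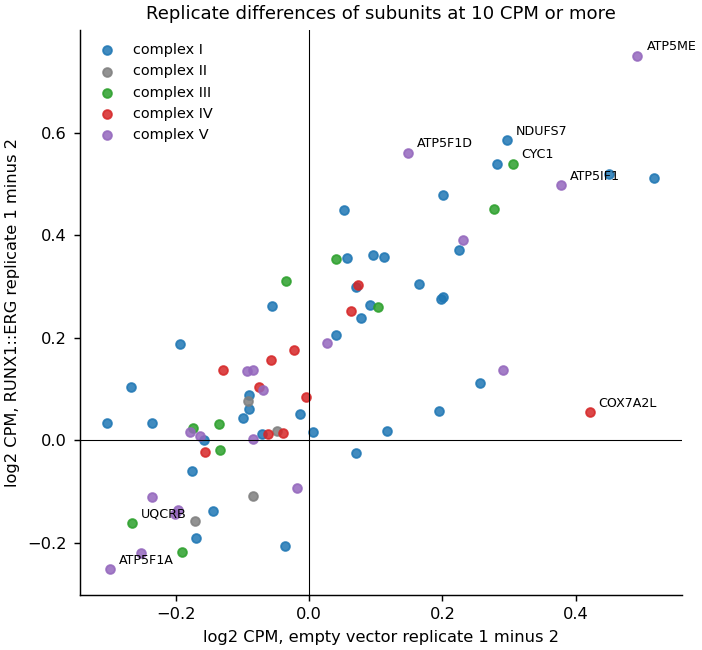
Each point is a subunit at 10 CPM or more, colored by complex, with the log2 CPM difference between empty vector replicates 1 and 2 on the x axis and that between RUNX1::ERG replicates 1 and 2 on the y axis. The points run from the lower left (ATP5F1A) to the upper right (ATP5ME), with 34 of the 80 higher in replicate 1 of both groups and 17 lower. Over all 15394 tested genes these counts are 5014 and 4586.

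The NDUFAF genes, taken in by their symbol, assemble complex I and are not part of it. Their median log2 fold change was -0.17, and both RUNX1::ERG libraries were below in 4 of 8 (NDUFAF1, NDUFAF2, NDUFAF3 and NDUFAF5), where they were below in 22.1% of all tested genes. NDUFAF2, a chaperone that stays on a late assembly intermediate, was at 43.1 and 40.3 CPM, and then at 34.0 and 31.1 CPM (log2 fold change -0.36, SE 0.17, edgeR adjusted p = 0.31). NDUFAF6, whose exons overlap those of other genes, was the exception, at 16.3 and 19.5 CPM and then at 23.4 and 24.1 CPM (log2 fold change 0.41, SE 0.19, edgeR adjusted p = 0.30). Over the wider list of 54 assembly factors of all 5 complexes, in which the 8 NDUFAF genes are included, the median was -0.15, 40 estimates were below 0, and 0 were called. At an unadjusted p under 0.05 there were 4 of the 54, against 18.0% of all tested genes. Both RUNX1::ERG libraries were below both empty vector libraries in 24 of them and above in 5 (22.1% and 25.1% of all tested genes). Among the factors with the lowest estimates were UQCC3 (-0.64, edgeR adjusted p = 0.064) and BCS1L (-0.49, adjusted p = 0.14), which act on complex III, and COA5 (-0.58, adjusted p = 0.13) and SCO1 (-0.47, adjusted p = 0.19), which act on complex IV, and these did not pass the threshold. For complex IV, the 23 assembly factors had a median of -0.10 where the 14 subunits had 0.17.

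The 13 subunits encoded by mitochondrial DNA took 4.08% and 4.21% of the counts with the empty vector and 4.55% and 4.83% with RUNX1::ERG. Their median log2 fold change was 0.14, and 0 were called, with 4 at an unadjusted p under 0.05, against 18.0% of all tested genes. Both RUNX1::ERG libraries were above in 6 (MT-ND1, MT-ND5, MT-ND6, MT-CYB, MT-CO1 and MT-CO2) and below in 0. Of all tested genes, 25.1% were above and 22.1% below. MT-ND6 was at 351 ± 2.73 CPM with the empty vector and at 472 ± 18.0 CPM with RUNX1::ERG (SD, n = 2), a log2 fold change of 0.43 (SE 0.14, edgeR adjusted p = 0.12). It is encoded on the strand opposite to the other subunits, and the counting strand was not given. MT-ND5 had a log2 fold change of 0.38 and MT-CO3 of -0.02.

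Among factors that act on these genes, TFB1M, the methyltransferase that modifies the mitochondrial small ribosomal RNA, passed the threshold, which was 1 of the 17 tested, against 4.79% of all genes. It fell from 26.4 and 24.1 CPM to 12.1 and 11.4 CPM, a log2 fold change of -1.10 (SE 0.19, edgeR adjusted p = 0.0093). TFAM, which packages mitochondrial DNA and takes part in its transcription, was at 182 and 206 CPM, and then at 131 and 159 CPM (log2 fold change -0.42, SE 0.16, edgeR adjusted p = 0.20). Of the factors known to bind the words counted above, NRF1 was at -0.14, GABPA at -0.02, GABPB1 at 0.02 and YY1 at -0.06 in log2 fold change. MYC, which binds the E-box and is not one of the 17, was at -1.11 (SE 0.15, edgeR adjusted p = 0.0020). RUNX1 and ERG, the parts of the fusion, were at 3.22 and 13.37. What part these factors have in the subunit values was not tested. PPARGC1B, a coactivator of mitochondrial genes, had 0.49 (edgeR adjusted p = 0.14). Over the 17 regulators the median was -0.14, with 6 genes below in both RUNX1::ERG libraries and 1 above, against 22.1% and 25.1% of all tested genes.

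In the pathways that feed the chain, 1 gene passed the threshold. Of 18 genes of pyruvate dehydrogenase and the citric acid cycle, the median log2 fold change was -0.01 and 1 was called, which is near the 4.79% of all tested genes. IDH2, the mitochondrial NADP-dependent isocitrate dehydrogenase, rose from 81.8 and 66.8 CPM to 140 and 126 CPM, a log2 fold change of 0.84 (SE 0.17, edgeR adjusted p = 0.018). Without RUNX1::ERG replicate 1 its adjusted p was 0.087, and over the other alternatives it ran from 0.00021 to 0.038. Of 18 genes of the mobile electron carriers and other ubiquinone reductases the median was -0.04, and 0 were called, with 3 at an unadjusted p under 0.05. CYCS, cytochrome c, was at 702 and 841 CPM, and then at 768 and 814 CPM (log2 fold change 0.04, SE 0.14).

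Side by side with the other large mitochondrial and translational groups, the subunits had medians of the other sign. The 76 mitochondrial ribosomal protein genes tested, whose products translate the mitochondrially encoded subunits, had a median log2 fold change of -0.18. Both RUNX1::ERG libraries were below in 42 of them and above in 4, and 0 were called, with 13 of 76 at an unadjusted p under 0.05, near the 18.0% of all tested genes. The 85 cytosolic ribosomal protein genes tested had a median of -0.30, with 71 below, 1 above and 2 called, both lower, and 40 of the 85 at an unadjusted p under 0.05. The 83 subunits had a median of 0.10, with 27 above (32.5%) and 7 below (8.43%). Over all tested genes, 25.1% were above, 22.1% were below and 4.79% were called. Subunit and ribosomal genes are alike in having short transcripts, with median lengths of 756 bases for the subunits, 1221 for the mitochondrial and 869 for the cytosolic ribosomal protein genes, against 3071 for all tested genes.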

How the data were processed

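WTS was measured in 2 empty vector and 2 RUNX1::ERG libraries of K562 cells. The files deposited by the authors hold unnormalized read counts for each NCBI gene number. The submitters' processing notes name HISAT2 2.2.1 and featureCounts 2.0.1, and hg19 as the genome. Settings for strand, mates and multiply placed reads are not given in the sources used here. Between 66.7% and 68.9% of counts from 1 to 10 were even in each library, a pattern that arises when both mates are counted, so intervals from counts are too narrow.

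Symbols came from a RefSeq gene table (GRCh38.p14), which matched 92.2% of genes, and positions and transcripts from GENCODE v44 lifted to GRCh37. Counts were compared in R 4.3.3 with edgeR 4.0.16, using TMM scaling, its filter on low counts, the quasi-likelihood test, Benjamini-Hochberg adjustment over all 15394 genes and a threshold of 0.05. Standard errors are the log2 fold change divided by the square root of F. DESeq2 1.42.0 and limma 3.58.1 voom were alternatives. Deviations used a pseudocount of 0.5 CPM. The scripts were tested on simulated counts with 200 changed genes and a dispersion of 0.04, a setting not estimated from these data. At true log2 changes of 0.5, 1 and 2, the mean fitted changes were 0.524, 1.01 and 2.02. The test called 0.5%, 43% and 100% of the changed genes, so at that dispersion it missed most changes of 0.5.

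The study calls the replicates biological, but no source used here ties them to separate cultures, so p-values measure the spread between these libraries, which may be technical. The replicates differed by more than sampling noise, with a chi-square per degree of freedom of 75.2 in the empty vector group and 57.5 in the RUNX1::ERG group. The members, gene lists and tests were chosen with earlier results of these data known. Named genes were those past the threshold, the highest and lowest estimate of each complex, core subunits, isoform pairs, ATP5IF1, CYCS and TFAM. Other genes were named after their values were seen. The values of some members are not reported here by name, and the counts and medians include them.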

Additional observations from a re-analysis of the deposited data

How the results depend on the processing

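With 2 libraries a group, the 95% interval of a subunit's fold change reached a median of 0.35 on the log2 scale to either side of the estimate. Of 584 values of the 45 named genes under the alternatives, 547 had the sign and the call of the main value. All genes called numbered 737. They were 1500 without the filter on low counts, 1204 with the DESeq2 Wald test, 1733 with the replicate block and between 286 and 1336 when a library was left out. Members called numbered 0, and 1 (COX6B2, lower) without the filter, with the replicate block, and without empty vector replicate 2 (0 to 1 over the libraries left out). The cause of these moves was not tested.

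The replicate number was not used to pair libraries, since no label says what it marks and there are 2 pairs. Deviations of same-numbered libraries correlated at 0.349 over all tested genes and 0.726 over the members. With the replicate block, COX6B2 (-1.25, adjusted p = 0.047) and TFAM (-0.42, adjusted p = 0.043) passed the threshold by edgeR's quasi-likelihood test, and the other named genes kept their calls. COX6B2 also passed without the filter (-1.21), as did COXFA4L2 (-1.90), and IDH2 lost its call without RUNX1::ERG replicate 1 (0.76).

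Without members that have a named pseudogene or copy, 8 members had both RUNX1::ERG libraries above and 4 below, of 38 tested, and the median of complex IV was -0.25, over 5 genes of which 3 (COX6B2, COX7A1 and COX7B2) were near or below 2 CPM. Over the libraries left out, medians ran from -0.02 to 0.17 for complex I, -0.03 to 0.11 for complex II, -0.02 to 0.19 for complex III, 0.10 to 0.24 for complex IV, 0.05 to 0.11 for complex V and -0.19 to -0.11 for the NDUFAF factors, which were at -0.13 with library totals. With COXFA4 and COXFA4L2 added, an alternative chosen after seeing the data, the median of complex IV was 0.17.

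Of the 45 named genes, 15 changed sign under some alternative, 4 of them other than by leaving out a library. ATP5MC2 was at -0.01 with DESeq2 size factors, with the DESeq2 Wald test and without the filter, ATP5PB at -0.01 with the DESeq2 Wald test, and NDUFS1 at -0.11 and UQCRHL at 0.02 with the length and GC correction. Over the libraries left out, values ran from -0.20 to 0.10 for ATP5F1A, -0.49 to 0.05 for ATP5F1D, -0.27 to 0.11 for ATP5F1E, -0.41 to 0.08 for ATP5IF1, -0.06 to 0.05 for ATP5MC2, -0.12 to 0.14 for ATP5PB, -0.03 to 0.26 for COX8A, -0.26 to 0.27 for CYC1, -0.09 to 0.17 for CYCS, -0.09 to 0.13 for NDUFS1, -0.24 to 0.33 for NDUFS7, -0.11 to 0.17 for NDUFS8, -0.05 to 0.15 for NDUFV1, -0.05 to 0.09 for UQCRFS1 and -0.29 to 0.16 for UQCRHL.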
